A study of Mus musculus with 9 samples.

Results

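The Toll-like receptors are the membrane receptors by which macrophages sense microbial products, and 10 of their genes (Tlr1 to Tlr9 and Tlr13) are described here in mouse peritoneal macrophages. The genes were chosen by symbol, by matching the Ensembl identifiers of the count files to GENCODE mouse release M21, and all 10 were found among the 47729 gene identifiers of each file. RNA-seq was available from 9 libraries of macrophages sorted by flow cytometry, 3 from each of 3 populations called converted, resident and monocyte-derived. All mice had the genotype Cx3cr1CreERT2-IRES-EYFP/+ Rosa26-stopfl-tdTomato/+, in which a tamoxifen-inducible Cre expressed from Cx3cr1, a gene of monocytes, switches on the tdTomato reporter. All mice also received IL-4 complexes (5 µg of the cytokine bound to 25 µg of antibody against it) from 4 days before harvest, every other day, a treatment that drives alternative activation of macrophages. Converted macrophages came from mice given 2 ml of thioglycollate, an irritant that recruits blood monocytes into the cavity, and fed tamoxifen for 10 weeks until harvest. For resident macrophages the labels name no treatment beyond the IL-4 complexes. Monocyte-derived macrophages were taken 4 days after 2 ml of thioglycollate. The labels give no ages and no sort gates, and do not tell if each library is another mouse; the p-values therefore reflect library-to-library spread that may be technical.

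Toll-like receptors bind microbial ligands with an outer horseshoe of leucine-rich repeats and signal through an inner TIR domain. Receptors of the cell surface sense bacterial envelope and flagella, whereas receptors of the endosome sense nucleic acids. TIR adaptors, chiefly Myd88, pass the signal to IRAK kinases, TRAF6, NF-kB and interferon regulatory factors, which switch on cytokine genes. In the peritoneal cavity macrophages are the main sentinels for bacteria that escape the gut. Humans lack Tlr13.

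The bases before a RefSeq start are shown for the 5 members called in both comparisons against monocyte-derived macrophages, 4 of them lower and Tlr3 higher. RefSeq promoters (GRCm38.p6) were at hand for 8 of the 10 genes, those of Tlr4 and Tlr7 being the other 2. Each line holds the 250 bases before the RefSeq start, 5′ to 3′ on the strand of the gene. That start is the GENCODE gene start for Tlr5 and Tlr8, and lies 5 bases inside the GENCODE gene for Tlr1, 71 bases inside for Tlr13 and 700 bases inside for Tlr3, so that the whole Tlr3 window is within the annotated gene. Tlr1 and Tlr6 have 2 RefSeq starts each, and the Tlr1 start nearer to the GENCODE start is shown. Capitals mark GAGGAA, a core motif of the macrophage factor PU.1, or AGATAA, a motif of GATA factors, on either strand (TTCCTC and TTATCT are their reverse complements).
Tlr1 (chr5:64933559-64933808, minus strand): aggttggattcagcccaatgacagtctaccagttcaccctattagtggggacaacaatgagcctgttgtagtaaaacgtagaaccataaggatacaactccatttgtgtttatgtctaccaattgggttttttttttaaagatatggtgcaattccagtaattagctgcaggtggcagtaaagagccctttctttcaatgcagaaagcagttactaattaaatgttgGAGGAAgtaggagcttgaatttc
Tlr5 (chr1:182954538-182954787, plus strand): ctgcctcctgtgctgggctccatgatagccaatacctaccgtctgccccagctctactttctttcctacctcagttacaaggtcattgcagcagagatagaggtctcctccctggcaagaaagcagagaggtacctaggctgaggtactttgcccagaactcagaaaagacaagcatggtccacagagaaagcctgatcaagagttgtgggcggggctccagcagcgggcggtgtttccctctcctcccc
Tlr8 (chrX:167264330-167264579, minus strand): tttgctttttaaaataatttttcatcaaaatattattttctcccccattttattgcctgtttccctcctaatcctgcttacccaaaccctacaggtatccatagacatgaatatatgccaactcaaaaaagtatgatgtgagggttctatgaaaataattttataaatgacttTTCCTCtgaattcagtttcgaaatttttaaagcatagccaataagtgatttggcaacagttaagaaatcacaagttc
Tlr13 (chrX:106143025-106143274, plus strand): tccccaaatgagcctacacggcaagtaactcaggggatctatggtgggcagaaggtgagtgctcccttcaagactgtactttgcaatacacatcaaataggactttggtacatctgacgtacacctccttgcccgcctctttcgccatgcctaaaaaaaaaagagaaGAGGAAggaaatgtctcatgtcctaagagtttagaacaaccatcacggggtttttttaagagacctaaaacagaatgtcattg
Tlr3 (chr8:45410381-45410630, minus strand): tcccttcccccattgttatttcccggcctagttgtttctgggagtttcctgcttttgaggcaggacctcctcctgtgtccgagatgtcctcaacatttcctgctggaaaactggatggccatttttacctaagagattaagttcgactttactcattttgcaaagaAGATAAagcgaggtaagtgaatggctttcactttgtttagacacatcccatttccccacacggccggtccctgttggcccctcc
GAGGAA was found in the windows shown for Tlr1, Tlr8 and Tlr13, at 23, 77 and 83 bases before the RefSeq start, and also in Tlr9, at 112 bases. It was not in the other Tlr1 window, 864 bases inside the gene, nor in the windows of Tlr2, Tlr3, Tlr5 or Tlr6. Of the 32851 mouse promoters of this length, 23.3% hold GAGGAA on either strand. AGATAA was found in Tlr3, 84 bases before the RefSeq start and inside the annotated gene, and in Tlr9, and 9.99% of promoters hold it. The STAT6 motif, TTC and GAA with 4 bases between them, searched because IL-4 signals through STAT6, was found in Tlr8, where it overlaps the GAGGAA match, and 5.85% of promoters hold it. The NF-kB motif was found in Tlr2 and Tlr3 (7.25% of promoters), the interferon regulatory factor motif, a pair of GAAA with 2 bases between them, in the Tlr6 window farther from the GENCODE start (931 bases inside the gene; 2.98%) and the AP-1 motif TGANTCA in Tlr9 (6.75%). Such matches describe the letters of these windows and do not show binding.

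The libraries held 15220884 to 20496258 reads in genes. Macrophage markers were read in all 3 groups, with none of 8 genes at 0. They summed to 6615 to 8141 CPM in converted, 6984 to 7293 CPM in resident and 4093 to 6748 CPM in monocyte-derived libraries. CPM are counts scaled to a common library size. Against monocyte-derived macrophages 3 of the 8 were called higher and 2 lower in both other groups. That is 62.5% called in each, beside 50.7% of all genes. Adgre1 had 2672 to 3417 CPM in converted, 2946 to 3012 CPM in resident and 223.6 to 421.2 CPM in monocyte-derived libraries. Fcgr1 had 0.0997 to 0.683 CPM in converted, 0.524 to 0.550 CPM in resident and 6.15 to 28.3 CPM in monocyte-derived libraries. Genes of resident cavity macrophages (10, among them Gata6 and Timd4) summed to 10068 to 11657 CPM in converted, 10129 to 11097 CPM in resident and 253.8 to 355.2 CPM in monocyte-derived libraries. Genes of recruited monocytes (8) summed to 88015 to 110050 CPM in converted, 81308 to 91625 CPM in resident and 42741 to 53838 CPM in monocyte-derived libraries. Chil3 led this list in every group. The other 7 genes summed to 6601 to 8170 CPM in converted, 6010 to 7691 CPM in resident and 18043 to 23359 CPM in monocyte-derived libraries. Of these 8 genes, 3 were called higher and 4 lower in both comparisons against monocyte-derived macrophages. That is 87.5% called in each, beside 50.7% of all genes. Transcripts of B cells (14 genes) summed to 62.0 to 142.5 CPM in converted, 838.1 to 1116 CPM in resident and 71.9 to 141.2 CPM in monocyte-derived libraries, with none at 0. Blnk alone gave 52.7 to 94.9 CPM of the sum in monocyte-derived libraries, and the other 13 genes summed to 55.8 to 130.7 CPM in converted, 797.7 to 1072 CPM in resident and 19.2 to 46.3 CPM in monocyte-derived libraries. Ms4a1 led the list in converted (9.77 to 30.6 CPM) and resident libraries (189.8 to 249.1 CPM). Of these 14 genes, 9 were called higher and 1 lower in converted than in monocyte-derived macrophages, and 13 lower in converted than in resident macrophages. That is 71.4% called in the first comparison, beside 50.7% of all genes, and 92.9% in the second, beside 6.07% of all genes. Neutrophil transcripts (10 genes) summed to 2.08 to 2.74 CPM in converted libraries, with 4 genes at 0 (S100a9, Mmp8, Camp, Ngp), and to 1.36 to 3.19 CPM in resident libraries, with 2 at 0 (Retnlg, Ngp). They summed to 23.9 to 66.3 CPM in monocyte-derived libraries, with none at 0. T and NK cell transcripts (12 genes, none at 0) summed to 6.58 to 11.98 CPM in converted, 46.8 to 66.7 CPM in resident and 37.0 to 171.6 CPM in monocyte-derived libraries. Il7r alone gave 17.3 to 86.2 CPM of the sum in monocyte-derived libraries. Dendritic cell transcripts (10 genes, none at 0) summed to 92.5 to 133.1 CPM in converted, 268.1 to 301.3 CPM in resident and 83.8 to 130 CPM in monocyte-derived libraries. Cd209a gave 16.8 to 76.1 CPM of the dendritic sum in converted, 160.3 to 178.1 CPM in resident and 7.63 to 36.9 CPM in monocyte-derived libraries. Against monocyte-derived macrophages, 0 of the 9 dendritic genes tested were called higher and 6 lower in converted ones (Ccr7, Ccr9, Flt3, Klrd1, Siglech and Zbtb46). In resident ones 2 were higher and 4 lower (Flt3, Klrd1, Siglech and Zbtb46). That is 66.7% lower in converted and 44.4% lower in resident macrophages, beside 24.9% of all genes in each. In bulk libraries such as these, fewer cells of a type and less RNA per cell cannot be told apart. Sex-linked transcripts also split the groups: Xist had 0 reads in every converted library, 0, 0 and 2 reads in resident libraries and 976, 710 and 1561 reads in monocyte-derived libraries, while Ddx3y on chromosome Y had 91.5 ± 6.09 CPM in converted, 90.6 ± 4.10 CPM in resident libraries (SD, n = 3 each) and no read in monocyte-derived libraries. Sex and the recent irritant therefore cannot be told apart from origin in comparisons against monocyte-derived macrophages, nor the earlier irritant and the tamoxifen diet from origin between converted and resident macrophages. The labels name the diet for converted macrophages only, so it cannot be told apart from origin against monocyte-derived ones either. In monocyte-derived mice the irritant and the first IL-4 complexes both fell 4 days before harvest, and this timing cannot be told apart from origin.

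Per length, Tlr4 was the most abundant receptor transcript in all 3 groups, followed by Tlr13. In converted macrophages the mean TPM (a level corrected for transcript length and scaled to a common total) was 96.7 for Tlr4, 32.7 for Tlr13, 11.2 for Tlr6, 8.59 for Tlr1, 7.38 for Tlr8, 6.97 for Tlr2, 6.79 for Tlr7 and 3.21 for Tlr3, with Tlr5 at 0.061 and Tlr9 without a read. Neighbours in that order had separate library ranges except Tlr8 and Tlr2, and Tlr2 and Tlr7. In resident macrophages the order was Tlr4 (79.9 TPM), Tlr13 (20.8), Tlr6 (9.95), Tlr1 (7.75), Tlr2 (7.52), Tlr7 (6.59), Tlr8 (4.52), Tlr3 (3.21), Tlr9 (0.166) and Tlr5 (0.0723), and library ranges overlapped for Tlr1 and Tlr2, for Tlr2 and Tlr7 and for Tlr8 and Tlr3. In monocyte-derived macrophages it was Tlr4 (129 TPM), Tlr13 (48.8), Tlr8 (34.7), Tlr1 (23.7), Tlr6 (14.7), Tlr7 (7.37), Tlr2 (5.74), Tlr3 (1.48), Tlr5 (0.820) and Tlr9 (0.419), with overlaps of Tlr7 and Tlr2, of Tlr3 and Tlr5 and of Tlr5 and Tlr9. Tlr8 thus took the fifth place in converted, the seventh in resident and the third in monocyte-derived macrophages.

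**Figure D1:**
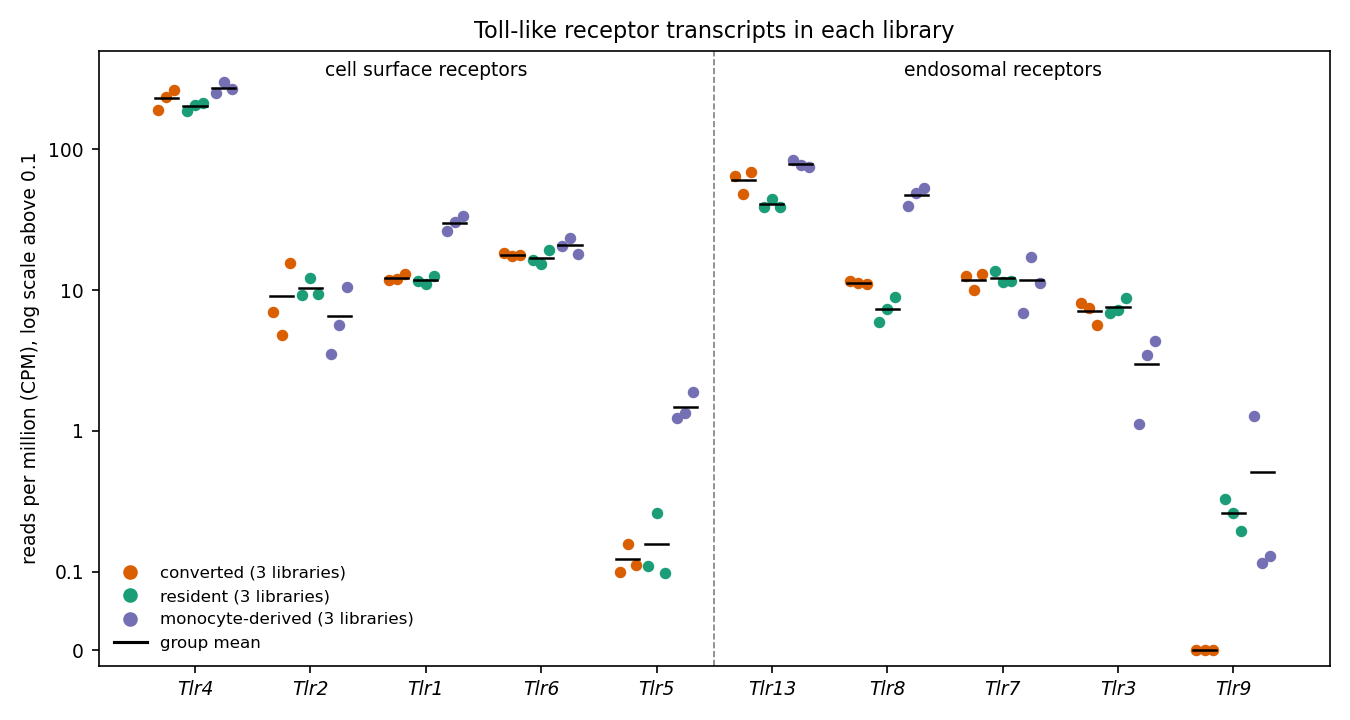
Level of each receptor gene in CPM (counts scaled to a common library size, on a log scale that is linear below 0.1) in each of the 9 libraries, with cell surface receptors on the left and endosomal receptors on the right. Points are libraries and bars are group means; Tlr1, Tlr5 and Tlr8 lie higher in all 3 monocyte-derived libraries than in the other 6, and Tlr9 has no read in converted libraries. CPM compare a gene between libraries and not genes with each other.

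Of the 9 receptor genes tested, 1 was higher and 4 were lower in converted than in monocyte-derived macrophages. They were tested with edgeR's quasi-likelihood test in a fit of all 9 libraries, and a gene was called at a Benjamini-Hochberg adjusted p under 0.05. Tlr9 had too few reads to pass the filter. Tlr5, one of the genes called lower, passed it only through the monocyte-derived libraries, where it is high. Over all 13223 genes tested 50.7% were called, 25.8% higher and 24.9% lower. The median log2 fold change of the 9 receptors was -0.24, beside -0.012 over all genes. Between resident and monocyte-derived macrophages 1 receptor was higher and 5 were lower, beside 50.7% of all genes (25.7% higher and 24.9% lower), with a median log2 fold change of -0.42 for the receptors and 0.00068 for all genes. By direction, 44.4% of the receptors tested were lower in converted and 55.6% in resident against monocyte-derived macrophages, and 11.1% were higher in each; with 9 genes, 1 gene is 11.1% of the set, and no test was made of these shares. These comparisons share the monocyte-derived libraries. Between converted and resident macrophages 1 receptor, Tlr13, was called and it was higher, beside 6.07% of all genes (1.82% higher and 4.26% lower), and 2 of the 9 had an unadjusted p under 0.05. The median log2 fold change was 0.053 for the receptors and 0.0066 for all genes. With upper-quartile scaling the calls over all genes in that comparison were 133 higher and 606 lower, in place of 240 and 563.

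**Figure D2:**
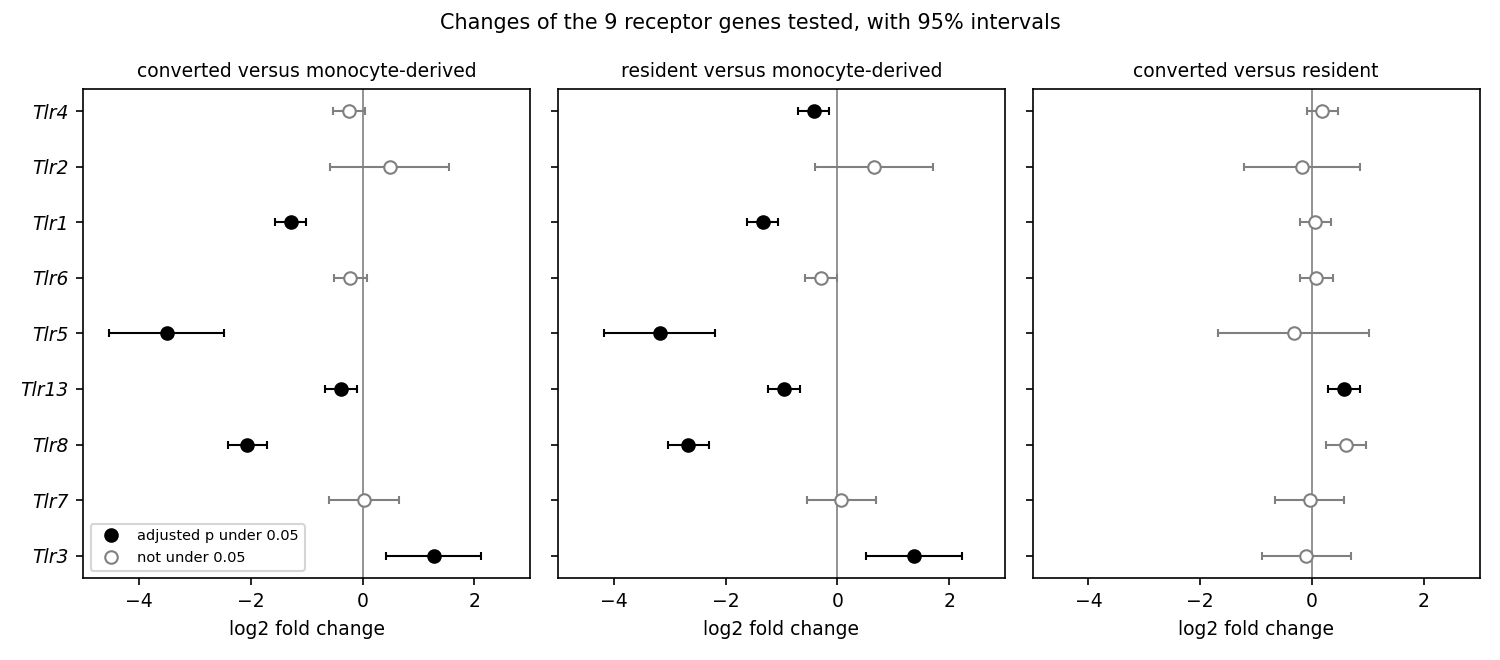
Log2 fold change of the 9 receptor genes tested in each comparison, with 95% intervals; values right of 0 are higher in the group named on the left of the panel title, and filled points have an adjusted p under 0.05. Against monocyte-derived macrophages Tlr5 lies farthest left of 0 (-3.51 in converted and -3.18 in resident macrophages), followed by Tlr8 (-2.06 in converted and -2.67 in resident), and Tlr3 lies right of 0 (1.27 in converted and 1.37 in resident). Tlr5 passed the filter on low counts only through the monocyte-derived libraries.

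Tlr4, the receptor for bacterial lipopolysaccharide (ENSMUSG00000039005, GRCm38 chromosome 4, 66827584 to 66930284, plus strand), had 188.6, 234.7 and 264.1 CPM in converted, 185.4, 207.3 and 213.8 CPM in resident and 249.6, 298.2 and 266.2 CPM in monocyte-derived libraries. All resident libraries lay below the monocyte-derived ones, whereas converted libraries overlapped with both other groups. Tlr4 was 1.34-fold lower in resident than in monocyte-derived macrophages (log2 -0.42 ± 0.13 SE, adjusted p = 0.0170). That call ended without monocyte-derived library 2 (adjusted p = 0.0627) and without resident library 1 (0.0753). In converted macrophages the difference from monocyte-derived ones did not pass (log2 -0.24 ± 0.12 SE, adjusted p = 0.130, 95% interval -0.52 to 0.035), though it did without converted library 3 (0.0491). Converted and resident macrophages differed by log2 0.18 (95% interval -0.098 to 0.46, adjusted p = 0.462).

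Tlr1 and Tlr6 each pair with Tlr2 to sense bacterial lipopeptides, and their genes lie 18467 bases apart on the minus strand of chromosome 5. Tlr1 (ENSMUSG00000044827, 64924679 to 64933563) had 11.7, 12.03 and 13.1 CPM in converted, 11.7, 11.1 and 12.7 CPM in resident and 26.2, 30.2 and 33.4 CPM in monocyte-derived libraries. All monocyte-derived libraries were above all others, while converted and resident libraries overlapped. Tlr1 was 2.44-fold lower in converted than in monocyte-derived macrophages (log2 -1.29 ± 0.12 SE, adjusted p = 1.96e-05) and 2.53-fold lower in resident ones (log2 -1.34 ± 0.12 SE, adjusted p = 1.55e-05). Converted and resident macrophages differed in Tlr1 by log2 0.053, with a 95% interval of -0.22 to 0.33. The neighbouring Tlr6 (ENSMUSG00000051498, 64952031 to 64960097) had 18.2, 17.5 and 17.7 CPM in converted, 16.3, 15.2 and 19.2 CPM in resident and 20.7, 23.4 and 18.1 CPM in monocyte-derived libraries, and its ranges overlapped in each comparison. It did not pass in converted (log2 -0.22, adjusted p = 0.186) or resident macrophages (log2 -0.29, adjusted p = 0.0851) against monocyte-derived ones, nor between converted and resident macrophages (log2 0.075, 95% interval -0.22 to 0.37). Without monocyte-derived library 3 the resident difference passed (adjusted p = 0.0339). Reads of the pair could be exchanged: 454 of the 3332 windows of 50 bases in Tlr1 transcripts (13.6%) also occur in Tlr6, and 12.3% of those in Tlr6 occur in Tlr1, so the counts of both genes are uncertain to that extent.

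Tlr2, the shared partner of Tlr1 and Tlr6 (ENSMUSG00000027995, chromosome 3, 83836272 to 83841767, minus strand), had 6.98, 4.83 and 15.6 CPM in converted, 9.24, 12.3 and 9.40 CPM in resident and 3.52, 5.61 and 10.6 CPM in monocyte-derived libraries. Converted library 3 stood well above the other converted libraries, and all groups overlapped. Tlr2 did not pass in any comparison (adjusted p = 0.423 for converted and 0.271 for resident against monocyte-derived macrophages, and 0.870 for converted against resident macrophages). Its 95% intervals were wide, at log2 -0.58 to 1.54 for converted and -0.40 to 1.72 for resident against monocyte-derived macrophages, and -1.21 to 0.86 for converted against resident macrophages. Tlr5, the receptor for bacterial flagellin (ENSMUSG00000079164, chromosome 1, 182954788 to 182976044, plus strand), was a low transcript throughout, with 2, 3 and 2 reads in converted, 2, 5 and 2 reads in resident and 23, 23 and 29 reads in monocyte-derived libraries. Every monocyte-derived library held more reads than any other. The gene passed the filter on low counts only through the monocyte-derived libraries. Its test and its place among the lower receptors therefore depend on the group where it is high. Its level was 0.123 ± 0.0304 CPM in converted, 0.157 ± 0.0916 CPM in resident and 1.48 ± 0.350 CPM in monocyte-derived libraries (SD, n = 3 each). This made Tlr5 11.4-fold lower in converted (log2 -3.51 ± 0.46 SE, adjusted p = 0.000163) and 9.07-fold lower in resident than in monocyte-derived macrophages (log2 -3.18 ± 0.45 SE, adjusted p = 0.000242). At this depth a difference in Tlr5 between converted and resident macrophages was not detectable (95% interval of log2 -1.68 to 1.03). Neutrophil markers, 23.9 to 66.3 CPM in monocyte-derived libraries and at most 3.19 CPM in the others, moved with Tlr5, and their part in the result was not tested.

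Among endosomal receptors, Tlr8, a sensor of single-stranded RNA breakdown products (ENSMUSG00000040522, chromosome X, 167242696 to 167264329, minus strand), had 11.6, 11.2 and 11.1 CPM in converted, 5.89, 7.39 and 8.86 CPM in resident and 39.8, 48.6 and 53.0 CPM in monocyte-derived libraries. No library of a group fell within the range of another group, and resident libraries were the lowest. Tlr8, whose promoter above holds GAGGAA and the overlapping STAT6 motif, was 4.17-fold lower in converted (log2 -2.06 ± 0.16 SE, adjusted p = 4.49e-06) and 6.37-fold lower in resident than in monocyte-derived macrophages (log2 -2.67 ± 0.16 SE, adjusted p = 1.19e-06). Between converted and resident macrophages the 1.53-fold difference did not pass (log2 0.61 ± 0.16 SE, 95% interval 0.24 to 0.97, adjusted p = 0.0586). It passed with DESeq2 (adjusted p = 0.0179), without the filter on low counts (0.0312), in a fit of these 2 groups alone (0.0331) and without monocyte-derived library 1 (0.0238).

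Tlr7, the related sensor of single-stranded RNA (ENSMUSG00000044583, 167304929 to 167330558, minus strand), lies 40599 bases from Tlr8 on chromosome X and did not pass in any comparison. It had 12.6, 10.03 and 12.997 CPM in converted, 13.8, 11.4 and 11.6 CPM in resident and 6.83, 17.1 and 11.1 CPM in monocyte-derived libraries. Monocyte-derived libraries included both the lowest and the highest value. Log2 differences were 0.025 (95% interval -0.60 to 0.65) for converted and 0.070 (-0.55 to 0.69) for resident against monocyte-derived macrophages, and -0.045 (-0.66 to 0.57) for converted against resident macrophages. Whether the changes of Tlr7 and Tlr8 differ was not tested.

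Tlr13, which senses bacterial ribosomal RNA (ENSMUSG00000033777, chromosome X, 106143204 to 106160493, plus strand), had 64.2, 48.4 and 68.7 CPM in converted, 38.6, 44.5 and 39.1 CPM in resident and 84.1, 77.8 and 74.4 CPM in monocyte-derived libraries. Converted libraries lay between the other groups, and no ranges overlapped. Tlr13 was 1.93-fold lower in resident than in monocyte-derived macrophages (log2 -0.95 ± 0.13 SE, adjusted p = 0.000202). It was 1.30-fold lower in converted than in monocyte-derived macrophages (log2 -0.38 ± 0.13 SE, adjusted p = 0.0306), a call that ended without monocyte-derived library 1 (0.0657), without converted library 2 (0.0905) and in a fit of these 2 groups alone (0.0729). Against resident macrophages Tlr13 was 1.48-fold higher in converted ones (log2 0.57 ± 0.13 SE, adjusted p = 0.0324). This call ended without converted library 1 (0.114) or 3 (0.109), without resident library 1 (0.148), 2 (0.0606) or 3 (0.145) and with upper-quartile scaling (0.0506). B-cell transcripts ran the other way, at 62.0 to 142.5 CPM in converted and 838.1 to 1116 CPM in resident libraries. Dendritic cell transcripts summed to 92.5 to 133.1 CPM in converted and 268.1 to 301.3 CPM in resident libraries, a sum carried mostly by Cd209a and Bst2, and 1 of the 9 dendritic genes tested, Ccr7, was called lower in converted macrophages. The part of either in the Tlr13 difference was not tested. Of the 413 genes on chromosome X that were tested, which include Tlr7, Tlr8 and Tlr13, 49.4% were called in converted (24.2% higher, 25.2% lower) and 47% in resident (19.6% higher, 27.4% lower) against monocyte-derived macrophages, and 6.78% between converted and resident macrophages (4.12% higher, 2.66% lower).

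Tlr3, the receptor for double-stranded RNA (ENSMUSG00000031639, chromosome 8, 45395665 to 45411080, minus strand), was the receptor called higher in both comparisons against monocyte-derived macrophages. It had 8.12, 7.51 and 5.68 CPM in converted, 6.88, 7.24 and 8.76 CPM in resident and 1.12, 3.47 and 4.34 CPM in monocyte-derived libraries. Every monocyte-derived library lay below the others, with library 1 lowest, and converted and resident libraries overlapped. Tlr3 was 2.41-fold higher in converted (log2 1.27 ± 0.38 SE, adjusted p = 0.0189) and 2.59-fold higher in resident than in monocyte-derived macrophages (log2 1.37 ± 0.38 SE, adjusted p = 0.0130). The call in converted macrophages ended without converted library 1 (0.0591) and in a fit of these 2 groups alone (0.0518). Converted and resident macrophages differed by log2 -0.10 (95% interval -0.90 to 0.70). An antisense gene, Gm45542, overlaps 381 exon bases of Tlr3 and holds 5.3% of its windows, and its reads cannot be told apart from those of Tlr3 there, the strand setting of the counting being unstated.

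Tlr9, the receptor for unmethylated CpG DNA (ENSMUSG00000045322, chromosome 9, 106222598 to 106226883, plus strand), had 0, 0 and 0 reads in converted, 6, 5 and 4 reads in resident and 24, 2 and 2 reads in monocyte-derived libraries. Converted libraries lay below all others, and 24 of the 28 monocyte-derived reads came from library 1. With the converted libraries set to a floor of 3 reads, Tlr9 was 10.3-fold lower than in monocyte-derived macrophages. Without monocyte-derived library 1 it was 2.32-fold lower. Against resident macrophages it was 4.93-fold lower by the same floor. The floor allows for counting error in the converted libraries only. Reads of the other group were taken as counted, 4 of them in the value without monocyte-derived library 1, so these values are not lower bounds. Where the gene was tested, DESeq2 gave adjusted p = 0.00188 for converted against monocyte-derived, 0.0512 for converted against resident and 0.587 for resident against monocyte-derived macrophages, and edgeR without the filter on low counts gave 0.00458 for converted against monocyte-derived, 0.102 for converted against resident and 0.496 for resident against monocyte-derived macrophages. B cells express Tlr9, and their 14 markers summed to 838.1 to 1116 CPM in resident libraries against at most 142.5 CPM in the others; their part in the Tlr9 reads was not tested. Tlr11, an endosomal receptor of mice outside the 10 members, had 29 reads in monocyte-derived library 1, which also held most Tlr9 reads, 2 reads in library 2 and 1 read in library 3, and did not pass in any comparison.

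Summed over the 10 genes, receptor transcripts amounted to 173.7 ± 17.7 TPM in converted, 140.4 ± 9.7998 TPM in resident and 266.7 ± 12.1 TPM in monocyte-derived libraries (SD, n = 3 each). As CPM, which unlike these TPM carry the TMM scaling, the sums were 359 ± 44.8 in converted, 310 ± 18.8 in resident and 471 ± 35.7 in monocyte-derived libraries. The relative difference between groups was thus smaller in CPM. Endosomal receptors made up 29.1 ± 4.15% of the TPM sum in converted, 25.1 ± 0.842% in resident and 34.8 ± 0.788% in monocyte-derived libraries. Tlr8 accounted for 4.29 ± 0.578% in converted and 3.20 ± 0.480% in resident libraries, against 13.003 ± 1.28% in monocyte-derived libraries. Tlr4 made up 55.5 ± 4.87% in converted, 56.8 ± 0.924% in resident and 48.4 ± 1.52% in monocyte-derived libraries, and Tlr13 made up 18.98 ± 3.08% in converted, 14.8 ± 1.10% in resident and 18.3 ± 2.45% in monocyte-derived libraries. These shares are descriptions, and no test was made over the summed members.

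**Figure D3:**
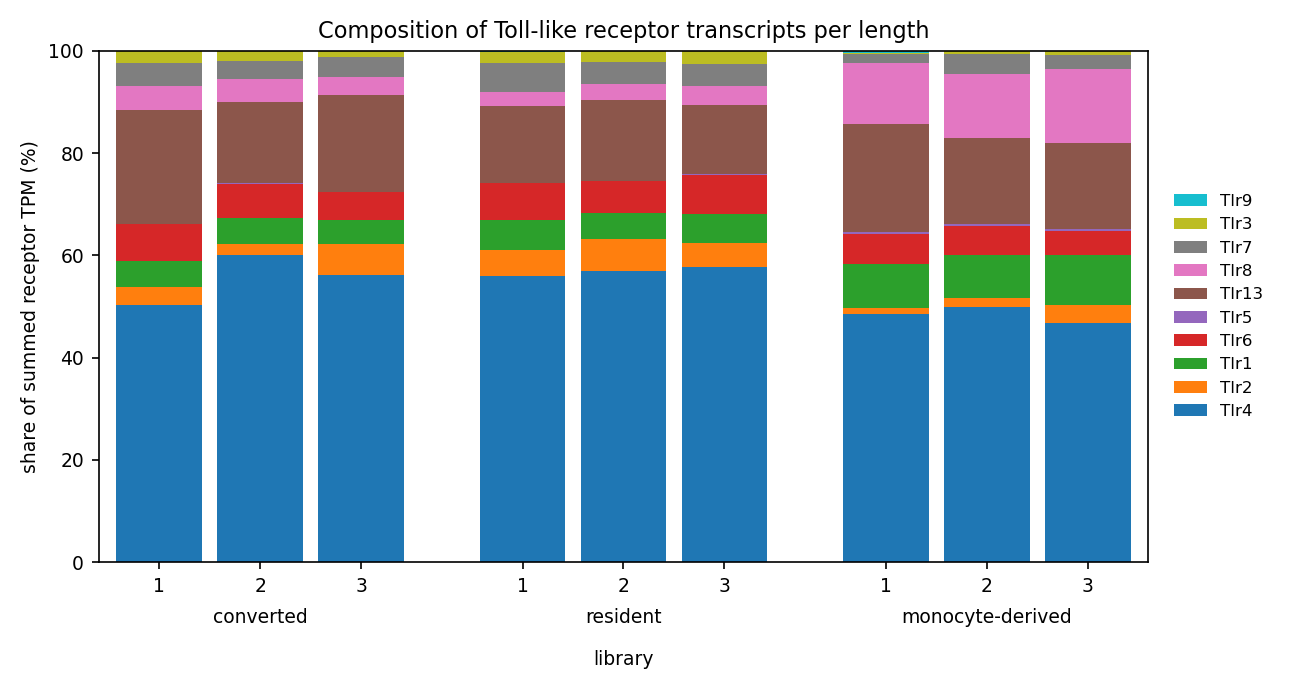
Share of each receptor gene in the summed TPM of the 10 genes (%), as stacked bars for each library of the converted, resident and monocyte-derived groups. Tlr4 fills 46.8% to 60.0% of every bar, and the Tlr8 segment is wider in monocyte-derived libraries (11.98% to 14.4%) than in the other 6 (2.75% to 4.78%).

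To describe which genes followed the receptors most closely, mean-centred log2 CPM of each member were compared with those of 11399 genes over the 9 libraries, by the root mean square difference. The nearest genes of Tlr1 were Ptpre (0.061) and Pgk1 (0.083), where Tlr1 itself deviated from its mean by 0.62. For Tlr8 (deviation 1.15) they were Rab7b (0.186) and Soat1 (0.229), for Tlr13 (0.416) Cdk14 (0.0996) and Tnfaip1 (0.113), and for Tlr4 (0.224) Vps26a (0.0723) and Coq3 (0.0962). Those of Tlr3 (0.847) were Tpmt (0.149) and Crim1 (0.169), and those of Tlr5 (1.30) were Plekhf1 (0.267) and Lcp1 (0.298). Tlr6 (0.171) was matched by Psmg3 (0.0758) and Secisbp2l (0.0764), Tlr7 (0.338) by Cops9 (0.0955) and Churc1 (0.116), and Tlr2 (0.639) by Zmat1 (0.259) and Hist2h4 (0.319). Among the receptors themselves Tlr4 and Tlr6 were nearest to each other (0.172) and Tlr5 and Tlr3 farthest apart (2.01). All libraries share the 3-group design, so such likeness describes group patterns.

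The genes that act with the receptors were followed in 8 lists by role, the smallest of which held Tlr11 and Tlr12, and 80 of the 86 genes passed the filter on low counts. Of these, 54 were called in converted and 48 in resident against monocyte-derived macrophages, and 8 between converted and resident macrophages. These are 67.5%, 60.0% and 10.0% of the genes tested, beside 50.7%, 50.7% and 6.07% of all genes. By direction 21.3% were higher and 46.3% lower in converted, and 21.3% higher and 38.8% lower in resident, against monocyte-derived macrophages. Of 6 genes for ligand capture and surface co-receptors, 3 were higher and 2 lower in converted and 3 higher and 1 lower in resident against monocyte-derived macrophages. That is 83.3% called in converted and 66.7% in resident macrophages, beside 50.7% of all genes in each. Lbp, which carries lipopolysaccharide to Cd14, had 832, 802 and 1284 reads in converted, 588, 477 and 560 reads in resident and 16, 15 and 12 reads in monocyte-derived libraries. All converted and resident libraries were far above the monocyte-derived ones, and Lbp was 61.7-fold higher in converted (adjusted p = 2.31e-07) and 33.6-fold higher in resident macrophages (adjusted p = 7.45e-07). Ly96, the MD-2 subunit that binds lipopolysaccharide on Tlr4, had 44.9 ± 0.796 CPM in converted, 51.6 ± 3.19 CPM in resident and 23.3 ± 4.73 CPM in monocyte-derived libraries, 1.93-fold higher in converted (adjusted p = 0.000299) and 2.22-fold higher in resident macrophages (adjusted p = 9.05e-05). Cd180, a Tlr4-like surface protein of B cells and macrophages, was 1.57-fold higher in converted (adjusted p = 0.00744) and 1.77-fold higher in resident macrophages (adjusted p = 0.00206). Cd36, a co-receptor of Tlr2 with Tlr6 and a lipid scavenger, had 185 ± 62.2 CPM in converted, 118 ± 10.9 CPM in resident and 901 ± 567 CPM in monocyte-derived libraries, and was 4.87-fold lower in converted (adjusted p = 0.00254) and 7.63-fold lower in resident macrophages (adjusted p = 0.000714). Ly86, the partner of Cd180, was 1.23-fold lower in converted macrophages (adjusted p = 0.0252), a call lost without monocyte-derived library 3 (0.0882), converted library 2 (0.0558) or 3 (0.102), without the filter on low counts (0.0662) and in the fit of 2 groups (0.0731). It did not pass in resident macrophages (log2 -0.095, adjusted p = 0.430). Cd14 had 95.3 ± 39.6 CPM in converted, 89.1 ± 2.68 CPM in resident and 127 ± 51.8 CPM in monocyte-derived libraries and did not pass.

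Genes of the list of receptor chaperones and endosomal trafficking, which also holds lysosomal proteases and peptide transporters, were lower more often than higher. Of 11 genes 1 was higher and 7 lower in converted, and 7 lower in resident, against monocyte-derived macrophages. That is 63.6% lower in each comparison, beside 24.9% of all genes, with median log2 fold changes of -0.45 in converted and -0.48 in resident macrophages. Slc15a3, an endolysosomal peptide transporter, had 3.10 ± 0.425 CPM in converted, 3.67 ± 0.226 CPM in resident and 43.1 ± 5.93 CPM in monocyte-derived libraries, 13.9-fold lower in converted (adjusted p = 9.53e-08) and 11.7-fold lower in resident macrophages (adjusted p = 1.51e-07). Ctss, a cathepsin that can cleave endosomal receptors, was 3.19-fold lower in converted (adjusted p = 6.17e-05) and 2.94-fold lower in resident macrophages (adjusted p = 9.79e-05). Lgmn, the asparagine endopeptidase, was 3.16-fold lower in converted (adjusted p = 0.00198) and 2.83-fold lower in resident macrophages (adjusted p = 0.00346). Ctsl, cathepsin L, was 3.08-fold lower in converted (adjusted p = 0.00408) and 3.02-fold lower in resident macrophages (adjusted p = 0.00450). The exception, Ap3b1, a subunit of the AP-3 sorting adaptor, was 1.197-fold higher in converted macrophages (adjusted p = 0.00972) and did not pass in resident ones (log2 0.12, adjusted p = 0.187).

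Of 5 TIR adaptor genes tested, 1 was higher and 1 lower in both comparisons against monocyte-derived macrophages. That is 40.0% called in each, beside 50.7% of all genes. Myd88, the adaptor of all members but Tlr3, had 84.5 ± 1.03 CPM in converted, 90.4 ± 2.21 CPM in resident and 146 ± 27.1 CPM in monocyte-derived libraries, 1.73-fold lower in converted (adjusted p = 0.000296) and 1.62-fold lower in resident macrophages (adjusted p = 0.000689). Tirap, which bridges Tlr2 and Tlr4 to Myd88, had 51.1 ± 1.12 CPM in converted, 47.9 ± 4.19 CPM in resident and 30.8 ± 6.23 CPM in monocyte-derived libraries, 1.66-fold higher in converted (adjusted p = 0.00160) and 1.55-fold higher in resident macrophages (adjusted p = 0.00366). Ticam1, the TRIF adaptor used by Tlr3 and Tlr4, had 19.5 ± 3.04 CPM in converted, 25.1 ± 1.42 CPM in resident and 23.1 ± 2.27 CPM in monocyte-derived libraries and did not pass.

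Among 16 signalling kinases and ubiquitin ligases, 2 were higher and 6 lower in converted, and 2 higher and 4 lower in resident, against monocyte-derived macrophages. That is 8 of 16 called in converted and 6 of 16 (37.5%) in resident macrophages, beside 50.7% of all genes in each. Neither share exceeded that of all genes. Irak2, a kinase-like partner of Myd88, was 3.58-fold lower in converted (adjusted p = 7.52e-06) and 2.17-fold lower in resident macrophages (adjusted p = 0.000164), and Ikbke, a kinase upstream of interferon factors, 2.70-fold lower in converted (adjusted p = 4.10e-06) and 2.94-fold lower in resident macrophages (adjusted p = 2.75e-06). Map3k8 was 1.90-fold lower in converted macrophages (adjusted p = 0.00273) and did not pass in resident ones (log2 -0.34, adjusted p = 0.167). Chuk, an IkB kinase subunit, was 1.32-fold lower in converted (adjusted p = 0.0145, and 0.0527 without converted library 1) and 1.501-fold lower in resident macrophages (adjusted p = 0.00191). Peli1, an ubiquitin ligase of the TRIF branch, was 1.65-fold higher in converted (adjusted p = 3.51e-05) and 1.74-fold higher in resident macrophages (adjusted p = 1.80e-05), and Irak1 1.28-fold higher in converted (adjusted p = 0.00375) and 1.27-fold higher in resident macrophages (adjusted p = 0.00459). Of 10 transcription factors, 2 were higher and 5 lower in converted, and 3 higher and 4 lower in resident, against monocyte-derived macrophages. That is 70.0% called in each, beside 50.7% of all genes. Irf7, which drives type I interferon genes after endosomal receptors fire, had 87.9 ± 38.9 CPM in converted, 247 ± 69.6 CPM in resident and 9.56 ± 1.21 CPM in monocyte-derived libraries, 9.21-fold higher in converted (adjusted p = 5.49e-05) and 25.9-fold higher in resident macrophages (adjusted p = 6.74e-06). Rel, an NF-kB subunit, was 2.68-fold lower in converted (adjusted p = 1.99e-05) and 2.40-fold lower in resident macrophages (adjusted p = 4.20e-05), and Irf5 1.89-fold lower in converted (adjusted p = 3.63e-05) and 1.91-fold lower in resident macrophages (adjusted p = 3.28e-05). Fos was 5.48-fold higher in resident macrophages (adjusted p = 7.67e-05). In converted macrophages Fos was 1.71-fold higher (adjusted p = 0.0340), a call lost without library 1 or 2 of the monocyte-derived group (0.110 and 0.0708), library 1 or 3 of the converted group (0.129 and 0.0827), without the filter on low counts (0.118) and in the fit of 2 groups (0.0692). Relb was 1.69-fold lower in converted (adjusted p = 0.00371) and 1.42-fold lower in resident macrophages (adjusted p = 0.0273), the second call being lost without monocyte-derived library 2 (0.0920), resident library 1 (0.0960) or resident library 3 (0.0801). Jun was 1.66-fold lower in converted macrophages (log2 -0.73, adjusted p = 0.00574). It was 1.45-fold higher in resident macrophages (adjusted p = 0.0271), a call lost without library 1 or 2 of the monocyte-derived group (0.0707 and 0.0555) or library 2 or 3 of the resident group (0.0799 and 0.0656).

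Inhibitors of the pathway and the genes it induces moved in both directions. Of 16 inhibitors 3 were higher and 9 lower in converted, and 3 higher and 8 lower in resident, against monocyte-derived macrophages. That is 75.0% called in converted and 68.75% in resident macrophages, beside 50.7% of all genes in each. Tnip3, which binds A20 to restrain NF-kB, had 17.8 ± 8.13 CPM in converted, 17.9 ± 4.53 CPM in resident and 302 ± 41.4 CPM in monocyte-derived libraries, 17.0-fold lower in converted (adjusted p = 6.32e-06) and 16.9-fold lower in resident macrophages (adjusted p = 6.54e-06). Cd200r1, an inhibitory receptor, was 3.80-fold lower in converted (adjusted p = 7.32e-07) and 3.72-fold lower in resident macrophages (adjusted p = 9.19e-07). Socs1, a suppressor of cytokine signalling that IL-4 also induces, was 6.58-fold lower in converted (log2 -2.72, adjusted p = 0.000241; log2 -3.31 without converted library 3) and 4.95-fold lower in resident macrophages (adjusted p = 0.000588). The phosphatase Dusp1 was 3.23-fold higher in converted (adjusted p = 3.58e-05) and 5.57-fold higher in resident macrophages (adjusted p = 3.59e-06). The IL-33 receptor Il1rl1 was 2.68-fold higher in converted (adjusted p = 0.000686) and 2.88-fold higher in resident macrophages (adjusted p = 0.000457). Nfkbia, the IkB-alpha inhibitor, was 1.86-fold higher in converted (adjusted p = 7.32e-05) and 2.36-fold higher in resident macrophages (adjusted p = 9.10e-06). Of 15 induced genes tested, 5 were higher and 7 lower in converted, and 5 higher and 6 lower in resident, against monocyte-derived macrophages. That is 80.0% called in converted and 73.3% in resident macrophages, beside 50.7% of all genes in each. The neutrophil chemokine Cxcl1 had 730, 242 and 445 reads in converted, 1192, 709 and 1379 reads in resident and 0, 8 and 0 reads in monocyte-derived libraries, so a fold change would rest on monocyte-derived library 2. Cxcl2 was 11.6-fold higher in converted (adjusted p = 0.000111) and 25.1-fold higher in resident macrophages (adjusted p = 2.56e-05) and Il6 3.44-fold higher in converted (adjusted p = 0.000300) and 5.20-fold higher in resident macrophages (adjusted p = 5.24e-05). Ccl3 was 21.4-fold lower in converted (adjusted p = 0.000143) and 23.5-fold lower in resident macrophages (adjusted p = 0.000130) and Ccl4 46.6-fold lower in converted (adjusted p = 0.000194) and 13.2-fold lower in resident macrophages (adjusted p = 0.000807). Ccl5 was 18.8-fold lower in converted macrophages (log2 -4.23, adjusted p = 0.00110), and log2 -3.03 without monocyte-derived library 3. T and NK cell transcripts summed to 171.6 CPM in monocyte-derived library 3 and to 37.0 and 117.8 CPM in libraries 1 and 2. They summed to 6.58 to 11.98 CPM in converted and 46.8 to 66.7 CPM in resident libraries. Il7r alone gave 17.3, 86.2 and 62.4 CPM of the sum in monocyte-derived libraries 1, 2 and 3. The other 11 genes summed to 5.63 to 10.7 CPM in converted, 45.5 to 63.8 CPM in resident and 19.7 to 109.2 CPM in monocyte-derived libraries. The part of T and NK cell transcripts in the Ccl5 differences was not tested. In resident macrophages Ccl5 did not pass (log2 -1.54, adjusted p = 0.0554), though it did with DESeq2 (0.0305) and without library 1 or 2 of the monocyte-derived group (0.0197 and 0.0159), and the resident and monocyte-derived libraries overlapped; without monocyte-derived library 3 the difference was log2 -0.34.

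**Figure D4:**
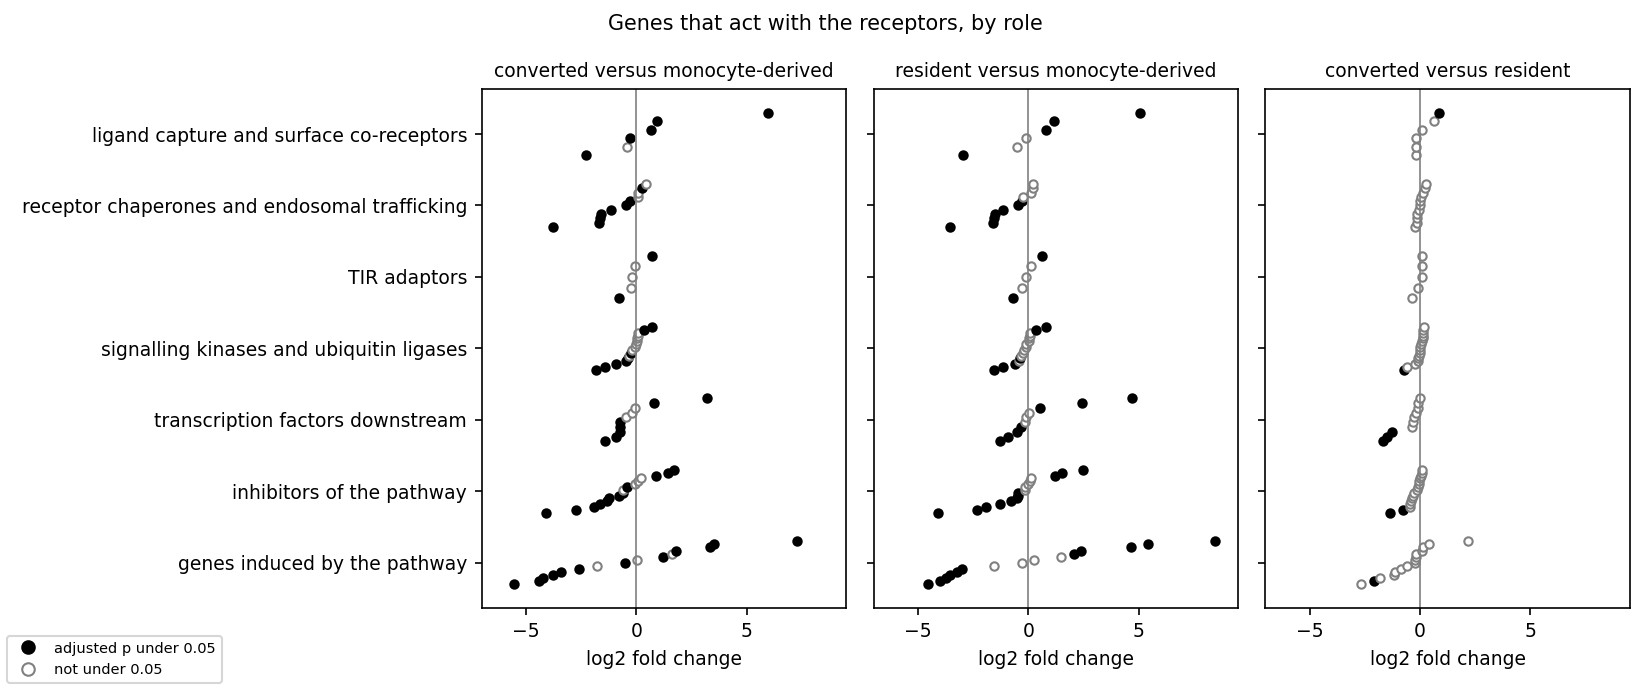
Log2 fold change of the genes that act with the receptors, 1 point a gene, by role (rows) and comparison (panels); values right of 0 are higher in the group named on the left of the panel title, and filled points have an adjusted p under 0.05. Chaperones and trafficking genes lie mostly left of 0 against monocyte-derived macrophages, the induced genes spread in both directions, and between converted and resident macrophages 8 points are filled, 1 of them right of 0.

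Between converted and resident macrophages 8 of these genes were called, 1 higher and 7 lower in converted ones. Lbp was 1.84-fold higher in converted macrophages (adjusted p = 0.0353). Fos was 3.20-fold lower, at 285 ± 105 CPM in converted and 911 ± 20.04 CPM in resident libraries (adjusted p = 0.00824), and Jun 2.40-fold lower, at 170 ± 45.9 CPM in converted and 410 ± 26.01 CPM in resident libraries (adjusted p = 0.00419). Irf7 was 2.81-fold lower (adjusted p = 0.0234), Irak2 1.65-fold lower (adjusted p = 0.0237), Dusp1 1.72-fold lower (adjusted p = 0.0274) and Tnfaip3, which encodes A20, 2.53-fold lower (adjusted p = 0.0484). The eighth gene, the interferon-induced chemokine Cxcl10, fell outside the rule for named genes and was singled out after its values were seen, with 0.453 ± 0.126 CPM in converted and 1.97 ± 0.755 CPM in resident libraries (log2 -2.10, adjusted p = 0.0417). Calls of Fos and Jun held in each alternative run, with adjusted p up to 0.0454 and 0.0241, whereas those of the other 6 genes were lost without single libraries. Lbp was lost without converted library 3 (0.0595) or library 1, 2 or 3 of the resident group (0.0822, 0.125 and 0.147), and Irf7 without library 1 or 3 of the converted group (0.0907 and 0.0548) or library 1 or 3 of the resident group (0.0992 and 0.0822), without the filter on low counts (0.125) and in the fit of 2 groups (0.0673). Irak2 was lost without library 1, 2 or 3 of the converted group (0.0933, 0.0550 and 0.0569) or library 1, 2 or 3 of the resident group (0.0586, 0.0890 and 0.0914). Dusp1 was lost without converted library 3 (0.0569) or library 1, 2 or 3 of the resident group (0.105, 0.0812 and 0.0990). Tnfaip3 was lost without monocyte-derived library 2 (0.0659), library 1 or 2 of the converted group (0.149 each) or library 1, 2 or 3 of the resident group (0.128, 0.108 and 0.174), without the filter on low counts (0.188) and among protein-coding genes alone (0.0503). Cxcl10 was lost without library 1, 2 or 3 of the converted group (0.108, 0.145 and 0.147) or library 1, 2 or 3 of the resident group (0.187, 0.0548 and 0.196) and among protein-coding genes alone (0.0509). Fos, Jun, Dusp1 and Tnfaip3 are early-response genes of stimulated cells, and their spread was wider in converted than in resident libraries. Dusp1 had 459 ± 106 CPM in converted and 792 ± 10.4 CPM in resident libraries, and Tnfaip3 had 15.3 ± 8.09 CPM in converted and 38.7 ± 4.81 CPM in resident libraries. B-cell transcripts, 62.0 to 142.5 CPM in converted and 838.1 to 1116 CPM in resident libraries, were also lower in converted libraries. Within the converted group, library 2 had the highest B-cell sum (142.5 CPM) and the lowest Fos (171.5 CPM), Jun (121.2 CPM) and Dusp1 (337.1 CPM). Tnfaip3 was lowest in converted library 1 (10.2 CPM). The part of B-cell transcripts in the differences was not tested.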

How the data were processed

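The authors deposited whole-number read counts per gene for each library, made with TopHat2 2.1.0 and HTSeq on GRCm38 per the submitters' processing notes; annotation, strand setting and multi-mapping rule: not given in the sources used here. The 47729 identifiers were matched to GENCODE M21, except 505 that held 0.064 to 0.108% of reads. The 5 summary lines of each file were left out (no feature 4.02 to 5.66%, ambiguous 4.47 to 4.68%, of all reads in a file).

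Counts were fitted for all 9 libraries together with edgeR 4.0.16 (quasi-likelihood F-test, robust, TMM scaling, filterByExpr with a minimum count of 10 and total of 15, R 4.3.3), with group means, 6 residual degrees of freedom and Benjamini-Hochberg adjustment over 13223 genes; adjusted p under 0.05 was called. The code was tested on simulated data. CPM used TMM-scaled library sizes, TPM the summed exon length of GENCODE M21, and 95% intervals the standard error of the fit.

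Alternatives were DESeq2 1.42.0, limma-voom (limma 3.58.1), other scalings and filters, a replicate block, a test of protein-coding genes alone, the 2 groups alone and each library left out. Replicates differed by more than counting noise in each group. The members and the gene lists were chosen with earlier results of these data known. Named were all 10 members, and of each pathway list up to 3 called genes per direction and comparison. These had the largest fold change among genes of at least 5 CPM in the higher group. They were shown for both comparisons against monocyte-derived macrophages. Leading genes were named for some marker lists only, and the list of eosinophils and mast cells was not shown. Also named were the 2 protein-coding genes nearest each tested member over 11399 genes (log2 CPM with a prior count of 2).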

Additional observations from a re-analysis of the deposited data

How the results depend on the processing

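Between converted and monocyte-derived macrophages, 3 receptors in place of 5 were called when only the 2 groups compared entered the fit. Between converted and resident macrophages, where Tlr13 was the single call, 2 receptors were called with DESeq2, without the filter on low counts and with only the 2 groups compared, and 0 with edgeR under upper-quartile scaling (unadjusted p under 0.05 for 2 receptors). Over all genes that comparison gave 1314 calls with DESeq2 and 2067 with only the 2 groups compared, in place of 803.

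Leaving out 1 library at a time gave 5886 to 6845 calls over all genes in converted and 5680 to 6875 in resident against monocyte-derived macrophages, and 245 to 1628 in converted against resident macrophages. The last range held 1628 without monocyte-derived library 1, 361, 535 and 354 without converted library 1, 2 or 3, and 295, 400 and 245 without resident library 1, 2 or 3. Receptors called ranged over 4 to 6, 5 to 7 and 0 to 2 in these comparisons, with 0 by edgeR without converted library 1 or 3 or any 1 resident library in the last (unadjusted p under 0.05 for 2 or 3 receptors), and genes of the pathway lists over 48 to 55, 44 to 51 and 2 to 12. Direction changed for differences that had not passed: Tlr7 in converted against monocyte-derived macrophages (range -0.25 to 0.41 on the log2 scale, with -0.25 and -0.0076 without monocyte-derived library 1 or 3, -0.015 and -0.038 without converted library 1 or 3), Tlr2 there (range -0.14 to 0.998, lowest without converted library 3) and Tlr7 in resident against monocyte-derived macrophages (range -0.21 to 0.47, with -0.21 without monocyte-derived library 1, -0.015 without resident library 1). In converted against resident macrophages it changed for Tlr2 (-0.80 to 0.13, highest without converted library 2), Tlr7 (-0.11 to 0.065, highest without converted library 2 and 0.044 without resident library 1), Tlr3 (0.038 without converted library 3, 0.011 without resident library 3) and Tlr5 (-0.58 to 0.23, highest without resident library 2). The cause of these changes was not tested.

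With the replicate number as a block, converted against resident macrophages gave 530 calls over all genes, 5 in the pathway lists and 0 among the receptors (edgeR, unadjusted p under 0.05 for 2 of them). Calls lost with the block were Tlr13 (adjusted p = 0.0723 against resident and 0.0528 against monocyte-derived macrophages), Lbp (0.0550), Irf7 (0.0518) and Cxcl10 (0.0615) in converted against resident macrophages, Fos in converted (0.0545) and Relb in resident against monocyte-derived macrophages (0.0513). Deviations of same-numbered libraries correlated at -0.0939 to 0.0651, so the numbers were not taken to pair libraries. Of the values recomputed without leaving out a library, 1155 held, 19 were weaker, 5 stronger and 10 counts moved. A gene held if it kept its direction and side of the threshold, and a count if it stayed within 1.5-fold of the main value. Tlr5 and Tlr9 had few reads, which limits what differences between converted and resident macrophages could be seen at this depth.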
